A study of Mus musculus with 8 samples.

Results

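The genes described here encode potassium channel subunits, and comprised every measured feature whose symbol is Kcn followed by letters of the family and a number. The rule used names only and found 92 of the 26711 features of a single-nucleus RNA-seq data set of mouse primary visual cortex (V1). By the role their family names imply, 30 were pore-forming voltage-gated subunits, 10 were modifier subunits that act within voltage-gated channels, 8 belonged to the Slo and SK channel families, most of which open on calcium or sodium, 15 were inward rectifiers, 14 were 2-pore leak channels and 15 were auxiliary subunits.

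All mice were GRfl/fl, with loxP sites on both sides of a part of Nr3c1, which encodes the glucocorticoid receptor (GR), and were sampled at postnatal day 21 (P21). At birth they received an adeno-associated virus, serotype 2/5, in which the astrocytic GfaABC1D promoter drove either Cre recombinase (GR-KO) or an inactive ΔCre (GR-Con), each followed by a membrane-targeted EGFP and a 4x6T element. Each vector was tested under normal rearing (NR) and dark rearing (DR), with 2 animals, a male and a female, in each of the 4 groups and 1 library per animal. Per the study's methods, nuclei that were DRAQ5 positive and GFP negative were sorted, and 102330 nuclei in 20 annotated cell types were deposited. The EGFP of these vectors carried a CAAX tag, not the nuclear-membrane KASH tag that the study used where it sorted GFP-positive nuclei. Whether the gate removed nuclei of transduced astrocytes was not tested.

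Potassium channels let potassium leave the cell and thereby set the resting potential and end the action potential. Voltage-gated channels open on depolarization. Kv3 channels (Kcnc) permit fast spiking, Kv4 channels (Kcnd) with their KChIP partners (Kcnip) carry A-type current in dendrites, and KCNQ channels carry the M-current that muscarinic receptors suppress. Inward rectifiers include the Kir4.1 channel of astrocytes (Kcnj10) and the GIRK channels (Kcnj3, Kcnj6 and Kcnj9) that G-protein-coupled receptors open, whereas 2-pore channels (Kcnk) provide leak and SK channels (Kcnn) open on calcium entry.

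Levels are unique molecular identifiers (UMIs) summed over the nuclei of a type in a library, scaled to 1000000 UMIs of that type (CPM), and a library counted where it held at least 10 nuclei of the type. Because nuclear RNA is rich in introns, long genes gather more UMIs, and levels were compared across types for the same gene only. A lower sum can come from fewer nuclei with the transcript or from less of it per nucleus, and these were not separated here. The types were made by clustering these counts, so differences between types are given as a description without a test.

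The 8 libraries held 9517 to 15161 nuclei and 168632129 to 288774016 UMIs, with a median of 14861 to 29223 UMIs per nucleus. In 3 libraries (NR GR-Con male, NR GR-KO male and DR GR-Con female) the smallest nucleus had 4635, 7024 and 5704 UMIs against 1402 to 1460 in the others, and these 3 held 2 to 4 microglia each, so nuclei of few UMIs were missing there. Of 101098 distinct barcodes, 1220 occurred in more than 1 library. Of 63 cell type markers, 53 were highest in the type they mark, and the 10 exceptions included all 3 for L4 and all 3 for L6IT. Cre transcripts were at 0 CPM in astrocytes of all 4 GR-Con libraries and at 4.14 to 10.4 CPM in the 4 GR-KO libraries, and in L2/3 neurons at 0 in the GR-Con libraries and at 0.717 to 3.51 CPM in the GR-KO libraries. Nr3c1 itself was at 230.9 and 221 CPM in astrocytes of NR GR-Con, 284 and 268 in NR GR-KO, 263 and 207 in DR GR-Con, and 274 and 275 in DR GR-KO, so it was not lower with Cre (log2 fold change 0.23 ± 0.12, adjusted p = 0.366, edgeR likelihood ratio test). These 3′ reads need not cover the deleted part and the share of transduced nuclei among the astrocytes was not measured, so that level does not check the deletion. EGFP transcripts were at 8.63 to 23.4 CPM in astrocytes of the 8 libraries, against 0.0753 to 0.992 CPM in L2/3 neurons.

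Of the 92 genes, 79 held enough UMIs to be tested in some type and comparison and 13, such as Kcna5, Kcna7 and Kcnj1, did not. In all, 63 reached a mean of at least 10 CPM in some type, 18 peaked between 1 and 10 CPM and 11 stayed under 1 CPM everywhere. Among the 63, the highest type was excitatory for 27, inhibitory for 14 and non-neuronal for 22, and 16 of them were within 1.1-fold of the next type. The 15 genes at least 2-fold above the next type were spread over neurons, glia and vascular cells. Summed over all 92, the level ran from 2467 CPM in oligodendrocytes to 31978 CPM in L2/3 neurons, and Kcnip4, which encodes KChIP4, made up 48.9% of the latter. Without the 3 libraries that lack small nuclei, 60 of the 63 kept their highest type. By mean UMIs per nucleus in place of CPM, 55 of the 92 did.

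**Figure D1:**
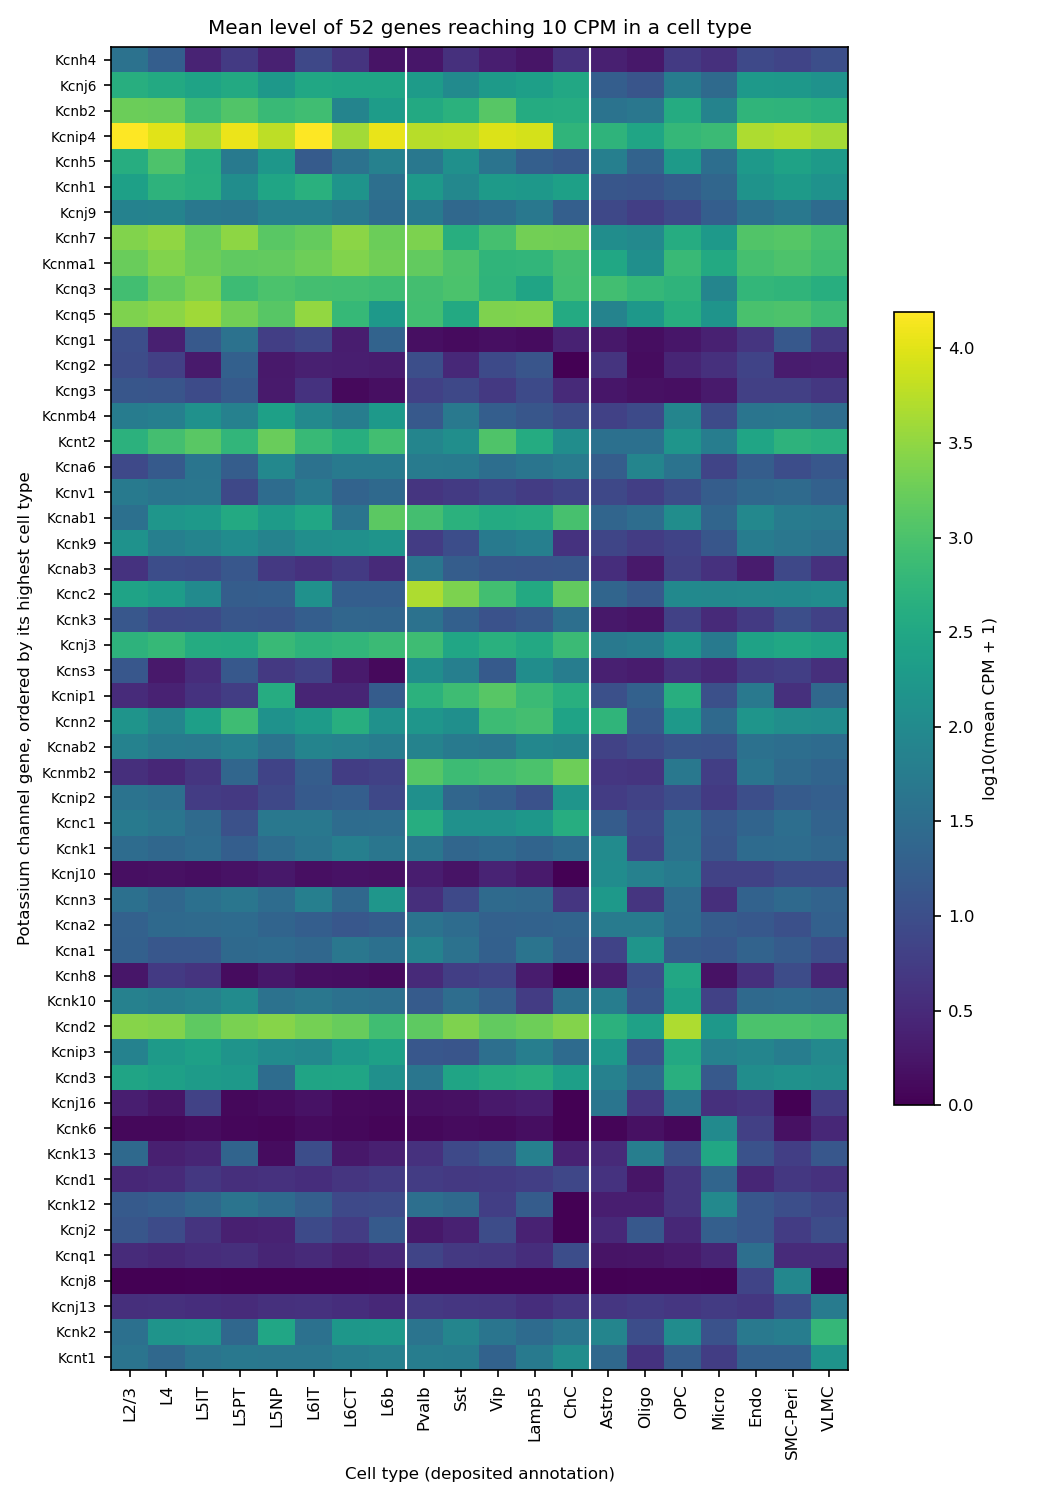
Mean level of 52 of the 63 potassium channel genes that reached 10 CPM, those named in the text, as log10(mean CPM + 1), in each of 20 cell types (columns, split into excitatory, inhibitory and non-neuronal by white lines), with genes ordered by the type in which they were highest. Kcnip4 is the brightest row in excitatory neurons, and Kcnh8, Kcnk6, Kcnk13, Kcnj8 and Kcnj13 stand out in a non-neuronal type each.

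Among voltage-gated subunits, Kcnc2, which encodes the Kv3.2 channel of fast-spiking cells, was at 4783 ± 331 CPM (mean ± SD, n = 8) in Pvalb interneurons and 2358 ± 217 CPM in Sst interneurons, and was highest in Pvalb in 8 of 8 libraries. Kcnc1 (Kv3.1) was at 407 ± 55.7 CPM in Pvalb interneurons and 409.6 ± 89.9 CPM in chandelier cells (ChC, n = 3), a difference smaller than the spread. The layer 4 excitatory neurons had the highest level of Kcnh5, an ether-à-go-go channel, with 1041 ± 76.5 CPM against 412 ± 106 CPM in L5IT neurons. Kcnh4 was highest in L2/3 at 36.9 ± 5.96 CPM, which was 2.16-fold the next type, L4.

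The M-current genes Kcnq3 and Kcnq5 were highest in L5IT neurons, at 2319 ± 272 and 3989 ± 508 CPM. The delayed rectifier Kcnb2 had a near tie between L2/3 at 1786 ± 104 CPM and L4 at 1725 ± 113 CPM. It was at 1261 CPM in Vip interneurons and only 78.5 CPM in L6CT neurons. Kcnh7 was near equal in L4 (3098 ± 211 CPM) and L5PT (3006 ± 306 CPM), with 2303 CPM in Pvalb interneurons. The large-conductance calcium-activated channel Kcnma1 was level between L4 (2533 ± 304 CPM) and L6CT (2532 ± 170.5 CPM).

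Several voltage-gated genes were highest outside neurons by CPM. Glial nuclei held fewer UMIs, with library medians of 5200 to 9392 per nucleus in OPC against 18144 to 37731 in L2/3 neurons. Kcnd2, which encodes Kv4.2, reached 4727 ± 257 CPM in oligodendrocyte precursors (OPC) and 2707 ± 261 CPM in L5NP neurons, the next type. In OPC, Kcnh8 was at 325 ± 25.2 CPM against 9.12 ± 2.52 CPM in oligodendrocytes, and the leak channel Kcnk10 at 239 ± 25.9 CPM against 106 ± 15.5 CPM in L5PT neurons. Kcna1, which encodes the axonal channel Kv1.1, was at 153 ± 23.2 CPM in oligodendrocytes and 72.2 ± 10.9 CPM in Pvalb interneurons. Kcna2 (Kv1.2) was at 55.0 ± 5.11 CPM in astrocytes and 54.8 ± 3.78 CPM in oligodendrocytes, which did not differ beyond the spread. Kcnd1 was highest in microglia at 22.1 ± 1.69 CPM (n = 5).

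Astrocytes were the highest type for Kcnj10 (109 ± 18.8 CPM), followed by oligodendrocytes (68.8 ± 8.06 CPM) and OPC (51.9 ± 3.10 CPM). Its partner Kcnj16 (Kir5.1) stood at 41.5 ± 11.1 CPM in astrocytes and 43.0 ± 6.16 CPM in OPC, within the spread of both. The leak channel Kcnk1 (TWIK-1) was at 103 ± 13.6 CPM in astrocytes against 63.6 ± 9.50 CPM in L6CT neurons. The SK channel gene Kcnn3 was at 183 ± 44.3 CPM in astrocytes and 162 ± 24.3 CPM in L6b neurons, whereas Kcnn2 was highest in Lamp5 interneurons at 886 ± 68.3 CPM and in astrocytes was at 558 ± 93.8 CPM.

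In microglia the leak channels Kcnk13 (316 ± 11.7 CPM), Kcnk6 (102 ± 10.6 CPM) and Kcnk12 (94.0 ± 12.2 CPM) were 4.84, 19.7 and 2.34-fold above the next type, over the 5 libraries with enough microglia. Kcnj8, the pore of vascular ATP-sensitive channels, was at 85.9 ± 68.3 CPM in smooth muscle cells and pericytes (n = 6), although only 146 of its UMIs were counted in all. Kcnq1 was highest in endothelial cells at 32.6 ± 17.2 CPM (n = 7). In vascular leptomeningeal cells (VLMC, n = 7), Kcnj13 was at 53.6 ± 9.75 CPM and the mechanosensitive leak channel Kcnk2 (TREK-1) at 624 ± 254 CPM. Vascular values need care. A list of 8 neuronal markers, called pan-neuronal here, held Snap25 and also Slc17a7, which marks excitatory neurons. Their sum was 717 to 4691 CPM in VLMC, 744 to 5296 in smooth muscle cells and pericytes and 2720 to 3856 in endothelial cells. The part of neuronal RNA in the levels there was not tested.

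Some auxiliary and modifier subunits were highest in particular neurons. Kcnip1 (KChIP1) was at 1262 ± 107 CPM in Vip interneurons, 784 ± 83.4 CPM in Sst interneurons and 1.49 CPM in L4 neurons, with 724 CPM in Lamp5, 502 in Pvalb, 423 in OPC and 398 in L5NP. Kcnip3 was instead highest in OPC at 345 ± 101 CPM, and Kcnip4 was level between L2/3 and L6IT neurons, at 15667 ± 1423 and 15539 ± 1049.7 CPM. Kcnmb2, a subunit of large-conductance channels, ran from 754 ± 118 CPM in Sst to 1249 ± 68.7 CPM in Pvalb and 1826 ± 179 CPM (n = 3) in chandelier cells, against 1.89 to 23.4 CPM in the excitatory types. Kcnab1, which encodes a Kv1 β-subunit, was at 1374 ± 138 CPM in L6b neurons, and Kcnab3 at 43.6 ± 5.17 CPM in Pvalb interneurons. Kcnmb4 was highest in L5NP at 243 ± 27.1 CPM, and the modifier Kcng1 in L5PT at 36.9 ± 7.91 CPM. The GIRK gene Kcnj5 was low at 6.61 ± 3.07 CPM in L6b neurons and at 0.0966 CPM or less in every other type.

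Most calls of channel genes with dark rearing were in excitatory neurons, as were most calls over all genes. With both genotypes fitted together (4 DR against 4 NR libraries, genotype as a term), 45 gene and type pairs rose and 45 fell of 955 tested, which is 9.42% of the pairs, beside 5.24% over all genes and types (2.62% higher and 2.63% lower). The 90 pairs came from 44 of 78 genes tested and 13 of 15 types. Of these, 74 were in excitatory types (13.8% of 537 pairs, beside 7.65% of all genes there), 10 in inhibitory types (3.98% of 251, beside 2.01%) and 6 in glia (3.59% of 167, beside 2.23%). Excitatory types thus held 82.2% of the channel calls and 82.6% of the calls over all genes. The 4 DR libraries did not overlap the 4 NR libraries in 134 pairs, 14.0% of those tested, beside 10.9% over all genes. The median log2 fold change was 0.02 over the channel pairs and -0.005 over all pairs. Leaving out 1 library gave 43 to 117 calls, and the 43 came without DR GR-KO male.

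The test was edgeR's likelihood ratio test, which the study used, with p-values adjusted over all genes of a type by Benjamini-Hochberg and a call at an adjusted p under 0.05. A fold change is DR over NR or GR-KO over GR-Con, its error is a standard error, and where 2 adjusted p-values are given the first is from that test and the second from edgeR's quasi-likelihood test. By the quasi-likelihood test 56 pairs were called, 5.86% of the pairs beside 3.30% over all genes, and 54 of these were among the 90. The labels do not say how the animals of a group relate, so p-values measure the spread between these libraries.

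Differences between families were not tested, and each share stands beside the 5.24% over all genes. Inward rectifiers had 16 pairs lower and 2 higher of 130 (13.8%), with 8 of the falls in Kcnj3 and 5 in Kcnj2, and a median log2 fold change of -0.12. Modifier subunits had 15 lower and 3 higher of 93 (19.4%), with 10 of the falls in Kcnv1, and a median of -0.13. Voltage-gated subunits had 16 higher and 5 lower of 367 (5.72%), near the share of all genes. Auxiliary subunits had 10 higher and 2 lower of 136 (8.82%), Slo and SK channels 8 higher and 3 lower of 104 (10.6%, all 3 falls in Kcnu1), and 2-pore channels 6 higher and 4 lower of 125 (8.0%). Of the 17 genes called in at least 2 types, Kcns3 alone went both ways.

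**Figure D2:**
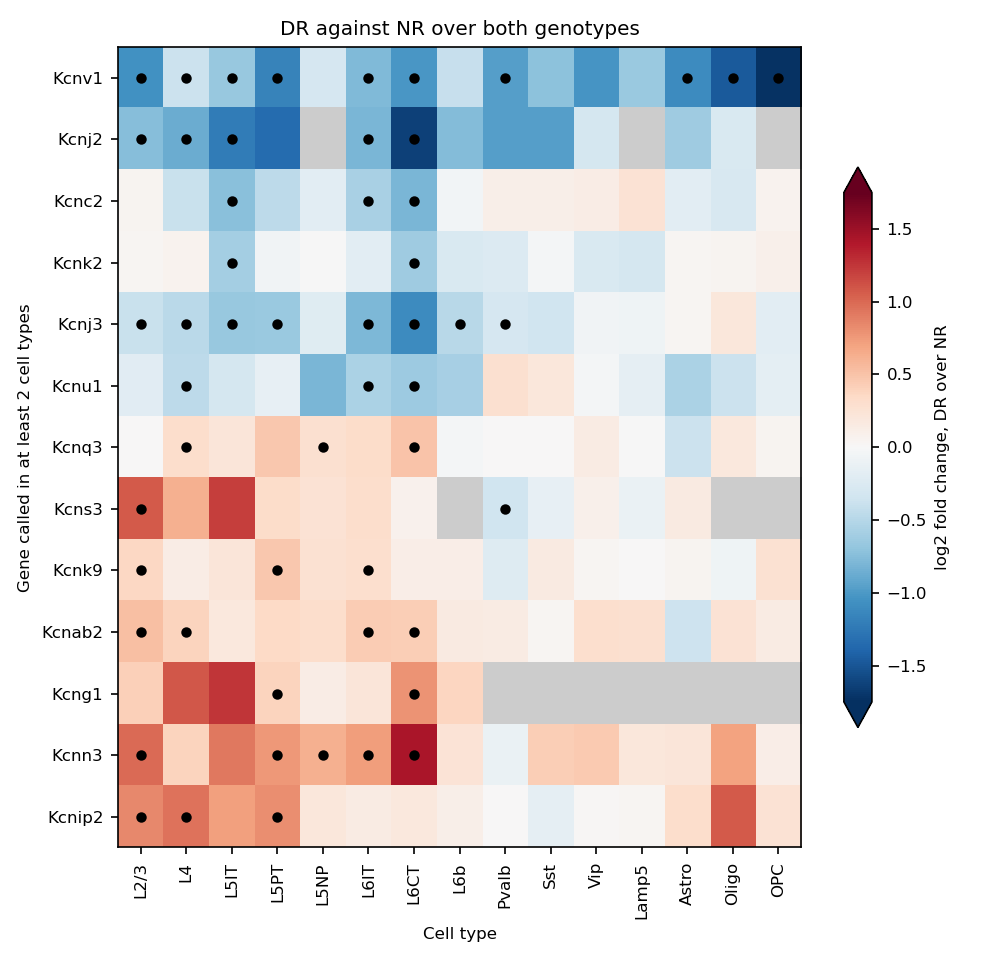
Log2 fold change of DR over NR, both genotypes fitted together, for 13 of the 17 genes called in at least 2 types, those named in the text (rows) in the 15 types tested (columns), with dots for an adjusted p under 0.05 by edgeR's likelihood ratio test and grey where a gene was not tested. Kcnv1 is blue in all 15 types, Kcnj3 and Kcnj2 are blue mainly in excitatory types, and Kcnn3 and Kcnip2 are red in several excitatory types.

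Of the 11 genes called in at least 3 types, the upstream sequence is given for 4, a pair that fell (Kcnj3 and Kcnj2) and a pair that rose (Kcnn3 and Kcnip2), so that their promoters can be read beside these changes. Each line holds the 250 bases before the RefSeq start in GRCm38.p6, 5′ to 3′ on the strand of the gene, with GC boxes (GGGCGG, searched on both strands) in capitals. They lie at chr2:55435720-55435969, chr11:111065914-111066163 and chr3:89519914-89520163 on the plus strand, and chr19:45816064-45816313 on the minus strand.
Kcnj3: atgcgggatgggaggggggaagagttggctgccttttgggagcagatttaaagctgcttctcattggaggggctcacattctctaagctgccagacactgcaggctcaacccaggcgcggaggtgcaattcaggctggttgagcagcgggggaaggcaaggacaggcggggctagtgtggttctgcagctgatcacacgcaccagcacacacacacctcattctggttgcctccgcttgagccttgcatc
Kcnj2: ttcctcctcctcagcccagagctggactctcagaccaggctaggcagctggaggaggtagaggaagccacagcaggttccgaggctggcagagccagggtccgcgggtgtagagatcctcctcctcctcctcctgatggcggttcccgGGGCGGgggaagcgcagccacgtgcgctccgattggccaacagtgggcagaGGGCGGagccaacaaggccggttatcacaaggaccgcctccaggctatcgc
Kcnn3: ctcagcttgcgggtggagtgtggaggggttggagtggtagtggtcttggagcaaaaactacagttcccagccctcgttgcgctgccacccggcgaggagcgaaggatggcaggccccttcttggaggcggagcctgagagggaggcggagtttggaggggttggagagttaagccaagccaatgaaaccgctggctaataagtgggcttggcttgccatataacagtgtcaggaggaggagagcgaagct
Kcnip2: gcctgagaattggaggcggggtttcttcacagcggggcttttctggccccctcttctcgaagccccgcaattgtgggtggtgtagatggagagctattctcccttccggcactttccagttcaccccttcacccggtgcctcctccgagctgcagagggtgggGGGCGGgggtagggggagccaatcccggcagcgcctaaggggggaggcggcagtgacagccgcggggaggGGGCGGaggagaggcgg
The windows of Kcnj2 and Kcnip2 each hold 2 GC boxes, and those of Kcnj3 and Kcnn3 hold none of the motifs searched. Of 27025 RefSeq promoter windows of this length, 32.9% hold a GC box, as did 33 of the 67 channel genes matched. The AP-1 motif TGANTCA was in 3 of the 67 (Kcnip3, Kcnip4 and Kcne3) and 6.87% of all windows. The EGR motif GCGNGGGCG was in 2 of the 67 (Kcnt2 and Kcng3) and 4.65% of all, the NBRE AAAGGTCA in Kcnh1 and 1.31% of all, and the CRE TGACGTCA in 0 of the 67 and 1.62% of all. The median GC content was 58.8% for the 67 and 52% for all windows. A match is a string of letters in the window and was not tested for binding.

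Kcnv1 fell in more types than any other channel gene. It encodes Kv8.1, a modifier that is silent alone and alters Kv2 channels (chr15:45106284-45114920, minus strand in GRCm38), and it was called lower in 10 types and had a negative fold change in 15 of 15. In L2/3 neurons the 4 NR libraries (in the order GR-Con male, GR-Con female, GR-KO male, GR-KO female, kept throughout) were at 69.8, 67.6, 57.4 and 76.7 CPM and the 4 DR libraries at 45.5, 41.0, 23.5 and 25.4 CPM. Every DR library was below every NR library (log2 fold change -1.06 ± 0.18, adjusted p = 1.65e-07 and 0.00799 in edgeR's 2 tests). In L6CT neurons NR was at 27.6, 28.0, 23.7 and 30.3 CPM and DR at 18.6, 16.0, 10.7 and 10.1 CPM, again without overlap (-1.01 ± 0.17, adjusted p = 1.67e-07 and 0.00958). In L4 neurons the fall was smaller, from 44.3, 40.9, 55.2 and 47.5 to 39.8, 34.7, 32.5 and 33.7 CPM (-0.37 ± 0.12, adjusted p = 0.0234 and 0.0532), and it was not called without DR GR-Con female, either DR GR-KO library, either NR GR-KO library or NR GR-Con male. In OPC, where Kcnv1 was low, NR was at 13.1, 7.37, 18.1 and 14.1 CPM and DR at 4.01, 4.45, 1.98 and 4.82 CPM (-1.73 ± 0.31, adjusted p = 2.45e-05 and 0.00966). The median log2 fold change of the 8 pan-neuronal markers in OPC was -0.30, and their part in the glial falls of Kcnv1 was not tested.

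Among inward rectifiers, Kcnj3 and Kcnj2 fell in several excitatory types. Kcnj3, which encodes GIRK1 (chr2:55435970-55598145, plus strand), was called lower in 8 types (L2/3, L4, L5IT, L5PT, L6IT, L6CT, L6b and Pvalb). In L6CT neurons NR was at 789, 866, 694 and 788 CPM and DR at 437, 353, 276 and 386 CPM, so that every DR library was lower (log2 fold change -1.10 ± 0.15, adjusted p = 1.13e-10 and 0.00532 in edgeR's 2 tests). The change was smaller in L5IT neurons, from 493, 499, 398 and 448 to 326, 289, 227 and 318 CPM (-0.66 ± 0.14, adjusted p = 0.000226 and 0.0373). In Pvalb interneurons it went from 888, 873, 845 and 827 to 757, 670.2, 602 and 735 CPM (-0.30 ± 0.09, adjusted p = 0.0358 and 0.0579), a call that was lost without any of 5 libraries (both NR GR-Con, NR GR-KO female, DR GR-Con female or DR GR-KO male). Kcnj2, which encodes Kir2.1, was lower in 5 excitatory types and had a negative fold change in 12 of 12 types tested. In L2/3 it went from 16.4, 18.03, 9.57 and 18.2 to 12.3, 10.6, 8.27 and 6.77 CPM, and the NR GR-KO male library lay within the DR range (-0.75 ± 0.21, adjusted p = 0.00433 and 0.0377). By contrast, the GIRK2 gene Kcnj6 rose in L6CT neurons, from 214, 273, 235 and 260.1 to 292, 351, 388 and 336 CPM (0.48 ± 0.12, adjusted p = 0.00162 and 0.0207). Kcnj5 rose in L6b neurons from 5.08, 4.23, 3.80 and 3.30 to 8.46, 6.62, 11.7 and 9.70 CPM, at few UMIs, and the call was lost without either DR GR-KO library, DR GR-Con male or NR GR-KO male (1.12 ± 0.27, adjusted p = 0.0109 and 0.217).

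**Figure D3:**
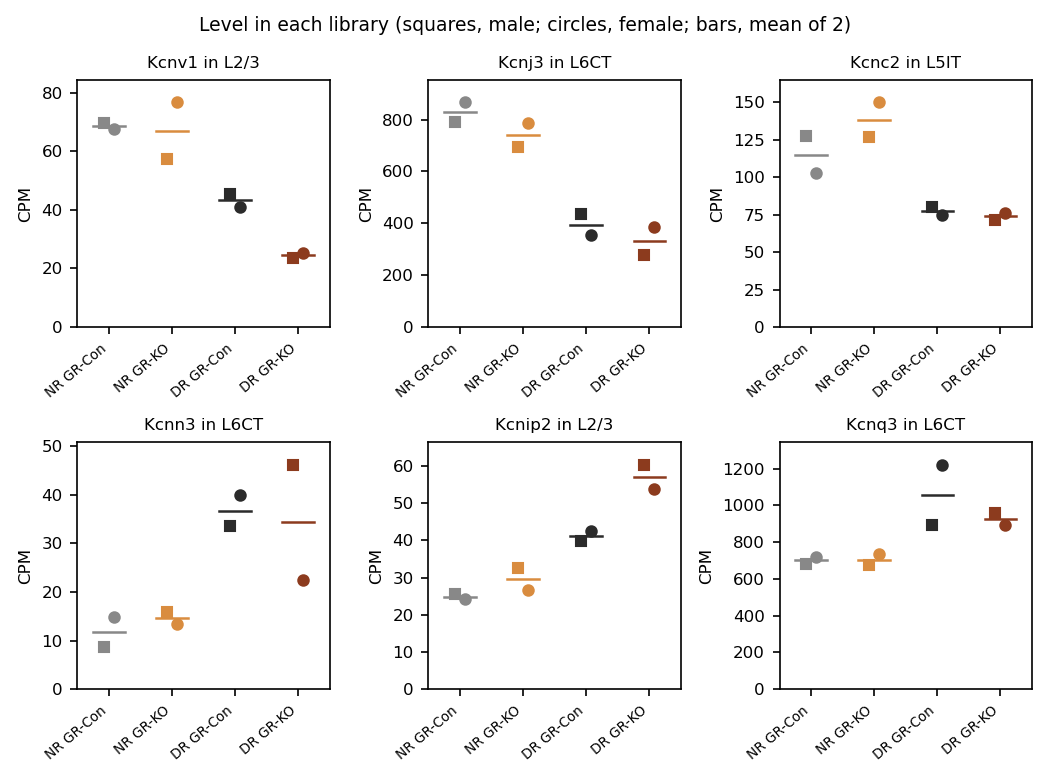
Level in CPM of 6 genes that changed with dark rearing, in the type named above each panel, for each library (squares, male; circles, female; bars, mean of the 2 libraries of a group; vertical axes start at 0). The 4 DR libraries lie below the 4 NR libraries for Kcnv1, Kcnj3 and Kcnc2 and above them for Kcnn3, Kcnip2 and Kcnq3.

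A calcium-activated channel gene and an M-current gene rose. Kcnn3, which encodes the SK3 channel, was called higher in 5 excitatory types. In L6CT neurons NR was at 8.64, 14.9, 15.9 and 13.5 CPM and DR at 33.5, 39.9, 46.1 and 22.5 CPM (log2 fold change 1.43 ± 0.25, adjusted p = 8.46e-07 and 0.0124 in edgeR's 2 tests), and in L2/3 neurons the values were 17.8, 21.6, 29.5 and 24.9 against 45.0, 44.8, 62.9 and 32.4 CPM (0.99 ± 0.20, adjusted p = 2.7e-05 and 0.0145). Neither gene and type pair had overlapping groups. Kcnq3 was called higher in 3 types, and in L6CT went from 682, 721, 676 and 734 to 892, 1221, 959.8 and 894 CPM (0.50 ± 0.12, adjusted p = 0.000634 and 0.0165), with DR GR-Con female the highest and every DR library above every NR library.

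Some A-type and Kv1 auxiliary genes rose as well. Called pairs were 5 higher and 0 lower of 60 for Kcnip (8.33%), 4 and 1 of 43 for Kcnab (11.6%) and 2 and 1 of 43 for Kcnd (6.98%). The share over all genes was 5.24%. Kcnip2, which encodes KChIP2, a subunit that raises Kv4 surface expression, was higher in L2/3, L4 and L5PT neurons. In L2/3 it went from 25.5, 24.1, 32.6 and 26.6 to 39.7, 42.5, 60.3 and 53.7 CPM (log2 fold change 0.84 ± 0.11, adjusted p = 1.69e-11 and 0.00401 in edgeR's 2 tests). In L4 the values were 21.7, 15.9, 33.2 and 22.3 in NR and 45.2, 30.4, 57.9 and 39.4 CPM in DR, where the groups overlapped (0.95 ± 0.20, adjusted p = 0.000167 and 0.0264). Kcnab2, a Kv1 β-subunit, was higher in 4 types, and in L6CT went from 55.8, 59.5, 59.3 and 58.0 to 69.3, 72.0, 84.4 and 86.6 CPM (0.43 ± 0.10, adjusted p = 0.000328 and 0.0113). In Lamp5 interneurons the Kv4.3 gene Kcnd3 went from 384, 338, 355 and 386 to 463, 460.1, 529.6 and 473 CPM (0.45 ± 0.10, adjusted p = 0.00071 and 0.01).

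In OPC, 2 auxiliary genes rose without overlap. Kcnip3 (KChIP3) went from 254, 211, 293 and 273 to 466, 362, 454 and 446 CPM (log2 fold change 0.78 ± 0.10, adjusted p = 2.47e-10 and 0.000138 in edgeR's 2 tests), and Kcnmb4 from 62.1, 59.4, 79.2 and 56.5 to 101, 91.2, 100.0 and 90.7 CPM (0.60 ± 0.12, adjusted p = 0.000143 and 0.00857). Both were called by each test. The neuronal marker sum in OPC was 885 and 750.4 CPM in NR GR-Con, 1073 and 1154 in NR GR-KO, 687 and 832 in DR GR-Con and 690.4 and 764 in DR GR-KO, with no DR library above the NR range.

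Kv3 genes went in opposite directions in excitatory neurons. Kcnc2 fell in L5IT, L6IT and L6CT, in L5IT from 128, 103, 127 and 150.01 to 80.4, 75.0, 71.6 and 76.4 CPM with no overlap (log2 fold change -0.73 ± 0.13, adjusted p = 6.3e-06 and 0.0257 in edgeR's 2 tests). Kcnc1 in L6CT went from 24.4, 24.5, 25.2 and 26.6 to 30.4, 26.7, 38.3 and 35.7 CPM (0.38 ± 0.11, adjusted p = 0.00768 and 0.0295), a call that was lost without either DR GR-KO library or NR GR-KO male. In Pvalb interneurons, where both were highest or near it, neither Kcnc1 (log2 fold change -0.18 ± 0.12, adjusted p = 0.482) nor Kcnc2 (0.10 ± 0.08, adjusted p = 0.599) was called. There the modifier Kcns3 fell, from 131, 136, 113 and 129.6 to 108, 93.6, 87.5 and 108 CPM (-0.34 ± 0.10, adjusted p = 0.0317 and 0.0694), whereas in L2/3 neurons it rose from 6.599, 6.65, 12.54 and 7.30 to 17.2, 15.0, 19.3 and 16.7 CPM (1.07 ± 0.18, adjusted p = 1.37e-07 and 0.00765). The fall in Pvalb cells was not called by the quasi-likelihood test nor without any of 5 libraries (both NR GR-Con, NR GR-KO female, DR GR-Con female or DR GR-KO male). Kcna6, a Kv1 gene, rose in Pvalb cells from 46.0, 47.7, 52.0 and 42.6 to 47.8, 61.4, 69.6 and 75.5 CPM with overlapping groups (0.43 ± 0.12, adjusted p = 0.0139 and 0.0582), and was not called without NR GR-KO female, DR GR-Con female or either DR GR-KO library.

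Leak channels were divided. Kcnk9, which encodes TASK-3, rose in L2/3, L5PT and L6IT neurons, in L5PT from 88.5, 94.5, 97.2 and 80.7 to 126, 131, 131 and 116 CPM (log2 fold change 0.48 ± 0.10, adjusted p = 0.000438 and 0.0408 in edgeR's 2 tests). Kcnk2 fell in L5IT and L6CT neurons, in L6CT from 216, 201, 194 and 187 to 167, 119.9, 91.6 and 137 CPM (-0.62 ± 0.17, adjusted p = 0.00499 and 0.0403). Groups did not overlap in either case. Kcnu1 in L6CT neurons, scarce but steady between libraries, went from 5.90, 5.90, 5.72 and 6.18 to 3.92, 3.66, 3.62 and 3.98 CPM (-0.63 ± 0.13, adjusted p = 5.29e-05 and 0.00958).

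Within GR-Con alone (2 DR against 2 NR libraries) 60 of 930 pairs were called, 32 higher and 28 lower, 6.45% beside 2.25% over all genes, and 19 were called by the quasi-likelihood test. Without DR GR-Con male 122 were called, and without NR GR-Con male or female 21 and 23. Within GR-KO alone 93 of 1006 pairs were called, 39 higher and 54 lower, 9.24% beside 3.66%, and 38 by the quasi-likelihood test. With sex as a term 149 were called, without NR GR-KO male 186, and without DR GR-KO male or female 40 and 56. These comparisons share their libraries with the joint fit. By the likelihood ratio test within GR-KO, neurons held 36 higher and 19 lower of 764 pairs. Other types held 3 higher and 35 lower of 242, so the larger number of falls in GR-KO came from outside neurons. All genes also fell more often than they rose there. Falls and rises were 320 and 93 in astrocytes, 289 and 225 in oligodendrocytes, 146 and 92 in OPC and 792 and 424 in VLMC. They were 49 and 13 in smooth muscle cells and pericytes and 20 and 14 in endothelial cells. In the neuronal types of most nuclei they were 784 and 777 (L2/3), 487 and 468 (L4) and 520 and 592 (L6CT). Kcnv1 in L2/3 fell within each genotype, by 0.71 on the log2 scale in GR-Con and by 1.41 in GR-KO, although the latter was not called by the quasi-likelihood test (adjusted p = 0.051 in edgeR) and the former not without either NR GR-Con library.

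In GR-KO, Kcnv1 fell in 11 types and Kcnab2 rose in 5. In astrocytes of GR-KO, 7 of 62 channel genes fell (11.3%, beside 2.21% of all genes there) and 1, Kcnn2, rose (1.61%, beside 0.642%), while 7 of 8 pan-neuronal markers fell there (median -0.71).

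The GR-Con comparison held large fold changes in genes that were low in both NR GR-Con libraries. Kcnab1 in L2/3 was at 8.27 and 7.71 CPM in NR GR-Con and 62.0 and 46.4 in DR GR-Con (log2 fold change 2.72 ± 0.21, adjusted p = 1.24e-34 and 0.00796 in edgeR's 2 tests), and at 56.0 and 11.8 in NR GR-KO and 57.9 and 25.5 in DR GR-KO. In L5IT it was at 66.0 and 83.1 CPM in NR GR-Con and 275 and 276 in DR GR-Con (1.88 ± 0.17, adjusted p = 5.09e-26 and 0.00108). Kcng1 in L5IT was at 4.59 and 3.70 CPM in NR GR-Con, 20.5 and 15.0 in DR GR-Con (2.09 ± 0.28, adjusted p = 6.91e-12 and 0.00579), 23.6 and 5.64 in NR GR-KO and 25.5 and 13.9 in DR GR-KO. In both genes the NR GR-KO male library lay with the DR libraries and the NR GR-KO female library near NR GR-Con.

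Kcnmb2 was likewise lowest in NR GR-Con in types where it was scarce. It was at 0.852 and 0.667 CPM in L2/3 of NR GR-Con, 4.36 and 5.57 in DR GR-Con (log2 fold change 2.65 ± 0.28, adjusted p = 3.53e-18 and 0.0134 in edgeR's 2 tests), 2.90 and 2.12 in NR GR-KO and 3.28 and 1.76 in DR GR-KO. In L5IT the values in that order were 0.471 and 0.358, 7.82 and 4.78, 7.90 and 1.51 and 3.20 and 1.15 CPM. Interneurons hold far more of this gene. Interneuron markers went both ways with dark rearing in GR-Con (edgeR likelihood ratio test). In L5IT 2 were called higher and 1 lower of 9 tested, and in L2/3 3 higher and 1 lower of 12. Gad1 and Gad2 in L5IT summed to 4.12 and 3.10 CPM in NR GR-Con and 2.43 and 4.24 in DR GR-Con. The summed level of 14 interneuron markers in L5IT was 16.9 and 14.3 CPM in NR GR-Con, 29.3 and 29.3 in DR GR-Con, 47.8 and 21.4 in NR GR-KO and 24.1 and 26.7 in DR GR-KO, and in L2/3 106 and 87.1, 105 and 91.2, 117 and 108 and 67.8 and 76.0 CPM. Their part in the Kcnmb2 values was not tested.

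The VLMC of GR-KO animals gave 19 of the 54 lower pairs. Of 25 channel genes tested there, 19 fell and Kcnk2 rose (1.02 ± 0.33, adjusted p = 0.0141, edgeR likelihood ratio test), with a median log2 fold change of -2.01, and 13.0% of all genes fell in that type. A gene could pass the filter on low counts through the NR libraries alone. Without that filter 25 of 74 channel genes fell, beside 834 of 18065 genes. The male and female libraries held 20 and 47 VLMC nuclei in NR GR-KO and 53 and 65 in DR GR-KO. The genes that fell included neuronal channels such as Kcnj3 (-4.40) and Kcnip4 (-3.42), whereas the VLMC gene Kcnj13 had 0.30 ± 0.40 and was not called. The pan-neuronal sum in VLMC was 3619.5 and 4632 CPM in NR GR-KO and 717 and 1095 in DR GR-KO. Without NR GR-KO male, which lacks small nuclei, 20 of 28 fell, and the rise of Kcnk2 was not called without it, NR GR-KO female or DR GR-KO female, and the part of neuronal RNA in these calls was not tested.

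Astrocytes of GR-KO differed from those of GR-Con in a few channel genes. With both rearings fitted together, 9 of 955 pairs were called, 0.942% beside 0.400% over all genes, and all 9 were in astrocytes. Without the 3 libraries that lack small nuclei 27 pairs were called over the 19 types then tested, 18 higher and 9 lower. In astrocytes, with all 8 libraries, 3 of 62 genes rose and 6 fell, beside 1.88% of all genes higher and 2.91% lower, or 14.5% against 4.79% in both directions. By the quasi-likelihood test 7 of the 62 were called (11.3%, beside 2.85%), without Kcnq3 and Kcnu1. Without DR GR-Con female 24 pairs were called, without DR GR-Con male 15 and without NR GR-KO female 15. The 8 pan-neuronal markers had a median log2 fold change of 0.27 in this comparison, with 8 of 8 above 0 (0.11 to 0.51). None was called by edgeR's likelihood ratio test, and their part in the channel calls was not tested.

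The fall with the smallest adjusted p was in Kcnt1, which encodes the sodium-activated channel Slack (chr2:25863734-25918273, plus strand). Astrocytes of NR GR-Con were at 43.8 and 30.3 CPM, NR GR-KO at 15.2 and 8.72, DR GR-Con at 35.6 and 41.1 and DR GR-KO at 13.4 and 13.5. Each GR-KO library was below each GR-Con library in both rearings (log2 fold change -1.60 ± 0.19, adjusted p = 5.52e-14 and 0.00135 in edgeR's 2 tests). Within DR alone it was called by the likelihood ratio test and not by the quasi-likelihood test (-1.48 ± 0.24, adjusted p = 9.88e-07 and 0.106), and not without either DR GR-KO library.

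Kcnip1 fell from 15.1 and 17.2 to 5.81 and 7.51 CPM in NR and from 9.004 and 12.4 to 5.86 and 4.17 CPM in DR (log2 fold change -1.22 ± 0.19, adjusted p = 3.89e-08 and 0.00465 in edgeR's 2 tests). The genotypes did not overlap. Over all libraries Kcnip1 was at 9.63 CPM in astrocytes, 1262 in Vip and 502 in Pvalb interneurons, 423 in OPC and 1.49 in L4 neurons. The part of RNA from other types in this call was not tested. The Kv2 modifier Kcng2 was lower too, at 9.59 and 4.93 against 1.90 and 1.55 CPM in NR and 4.50 and 1.62 against 0.732 and 0.835 CPM in DR, with the DR GR-Con female library within the GR-KO range (-2.07 ± 0.40, adjusted p = 2.71e-05 and 0.0161). Kcnq3 and Kcnu1 fell with overlapping groups, Kcnq3 from a mean of 1069 ± 302 to 639.6 ± 149 CPM (SD, n = 4; -0.74 ± 0.20, adjusted p = 0.00739 and 0.0631, edgeR), a call lost without NR GR-Con female or DR GR-KO male. Kcnu1 (-0.85 ± 0.27, adjusted p = 0.0421 and 0.127) was not called when any library other than DR GR-Con female was left out, nor in nuclei of at least 7024 UMIs (-0.49).

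**Figure D4:**
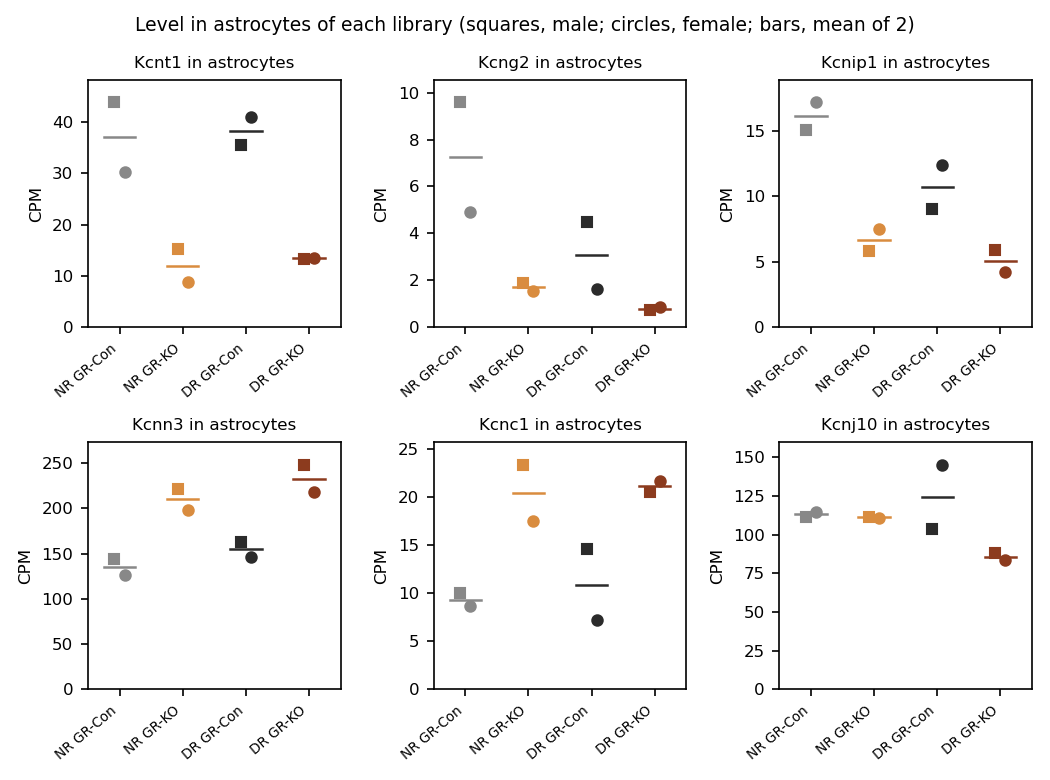
Level in CPM of 6 channel genes in astrocytes of each library (squares, male; circles, female; bars, mean of the 2 libraries of a group; vertical axes start at 0). GR-KO libraries lie below GR-Con libraries for Kcnt1 and Kcnip1 and above them for Kcnn3 and Kcnc1, while Kcng2 and Kcnj10 overlap.

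Kcnn3, whose highest level was in astrocytes, rose from 144 and 126 to 222 and 198 CPM in NR and from 163 and 147 to 248 and 218 CPM in DR, with no overlap (log2 fold change 0.59 ± 0.11, adjusted p = 7.88e-06 and 0.00396 in edgeR's 2 tests). Kcnc1 rose from 10.0 and 8.66 to 23.4 and 17.5 and from 14.6 and 7.16 to 20.5 and 21.7 CPM (1.01 ± 0.21, adjusted p = 0.000179 and 0.0249). The level of Kcnc1 in excitatory neurons of GR-Con was 3.77-fold that in astrocytes, against 0.247-fold for Kcnn3. In interneurons Kcnc1 was higher still, at 407 CPM in Pvalb and 134 in Sst, against 15.4 CPM in astrocytes over all libraries. The part of neuronal RNA in its rise was not tested.

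The main potassium conductance of astrocytes was not called over both rearings. Kcnj10 was at 111 and 115 CPM in NR GR-Con, 112 and 111 in NR GR-KO, 104 and 145 in DR GR-Con and 87.9 and 83.6 in DR GR-KO (log2 fold change -0.30 ± 0.14, adjusted p = 0.28 and 0.262 in edgeR's 2 tests). Kcnk1 likewise had -0.14 ± 0.16, adjusted p = 0.847 and 0.745. Within NR alone, Kcnk1 was lower, at 112 and 122 against 89.7 and 91.2 CPM (-0.44 ± 0.14, adjusted p = 0.0314 and 0.0389), a call lost when any of the 4 libraries was left out. Kcnn2 within NR was at 709 and 603 against 443 and 418 CPM (-0.67 ± 0.16, adjusted p = 0.000901 and 0.00662), not called without NR GR-KO female, whereas in DR it was at 606 and 538 and 554 and 594 CPM.

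Within NR, GR-KO differed from GR-Con in 43 of 1002 pairs, 30 higher and 13 lower (4.29%, beside 0.804% of all genes), or 21 pairs by the quasi-likelihood test (2.10%, beside 0.361%) and 25 by DESeq2, 19 higher and 6 lower. With sex as a term 69 were called, without NR GR-KO female 72, and without NR GR-Con female or male 19 and 21. Astrocytes held 14 higher and 8 lower of 62 (35.5% in all), beside 3.73% of all genes higher, 3.37% lower and 7.11% in both directions. Oligodendrocytes held 9 higher of 56, 16.1% beside 1.46% of all genes. Most of the higher genes in both glial types had a higher level in excitatory neurons. Among the 14 in astrocytes, 11 had more than 3 times the astrocyte level in excitatory neurons of GR-Con (median of the 14, 17.0-fold), as had 0 of the 8 lower genes, and the 9 in oligodendrocytes ranged from 12.2 to 48.5-fold. Of all channel genes tested, 32 of 62 in astrocytes (median 3.60-fold) and 38 of 56 in oligodendrocytes (median 7.52-fold) were over that ratio of 3.

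Kcnip4 in astrocytes was at 408 and 375 CPM in NR GR-Con and 718 and 833 in NR GR-KO (log2 fold change 0.92 ± 0.17, adjusted p = 2.06e-06 and 0.0023 in edgeR's 2 tests), against 450.2 and 622 in DR GR-Con and 447 and 483 in DR GR-KO. In oligodendrocytes it was at 161 and 154 CPM in NR GR-Con, 379 and 619 in NR GR-KO (1.62 ± 0.25, adjusted p = 5.77e-08 and 0.0355), 246 and 366 in DR GR-Con and 213 and 211 in DR GR-KO. Kcnh7 in astrocytes was at 79.2 and 67.7 against 159.9 and 178 CPM in NR (1.14 ± 0.15, adjusted p = 4.17e-11 and 0.00143), and Kcnq5 at 50.1 and 40.8 against 103 and 126 CPM (1.28 ± 0.18, adjusted p = 1.08e-10 and 0.00212). The NR GR-KO libraries were the highest in each.

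The 8 pan-neuronal markers moved with them. Their sum in astrocytes was 549.9 and 433 CPM in NR GR-Con, 734 and 739 in NR GR-KO, 395 and 592 in DR GR-Con and 438 and 449 in DR GR-KO. In oligodendrocytes it was 366 and 302, 546 and 648, 265 and 424 and 315 and 316 CPM in that order, and none of the 8 was at 0 in every library of a type. Within NR, 5 of 8 markers rose in astrocytes (median log2 fold change 0.65), 4 of 8 in oligodendrocytes (0.58) and 2 of 8 in OPC (0.36). Within DR, 0 were called in any of the 3 (8, 8 and 7 tested) by edgeR's likelihood ratio test, with medians of -0.10, -0.07 and -0.08. The median UMIs per astrocyte nucleus were 8662 and 12124 in NR GR-KO and 4889 to 7199 in the other libraries. The part of neuronal RNA and of depth in the glial calls was not tested.

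**Figure D5:**
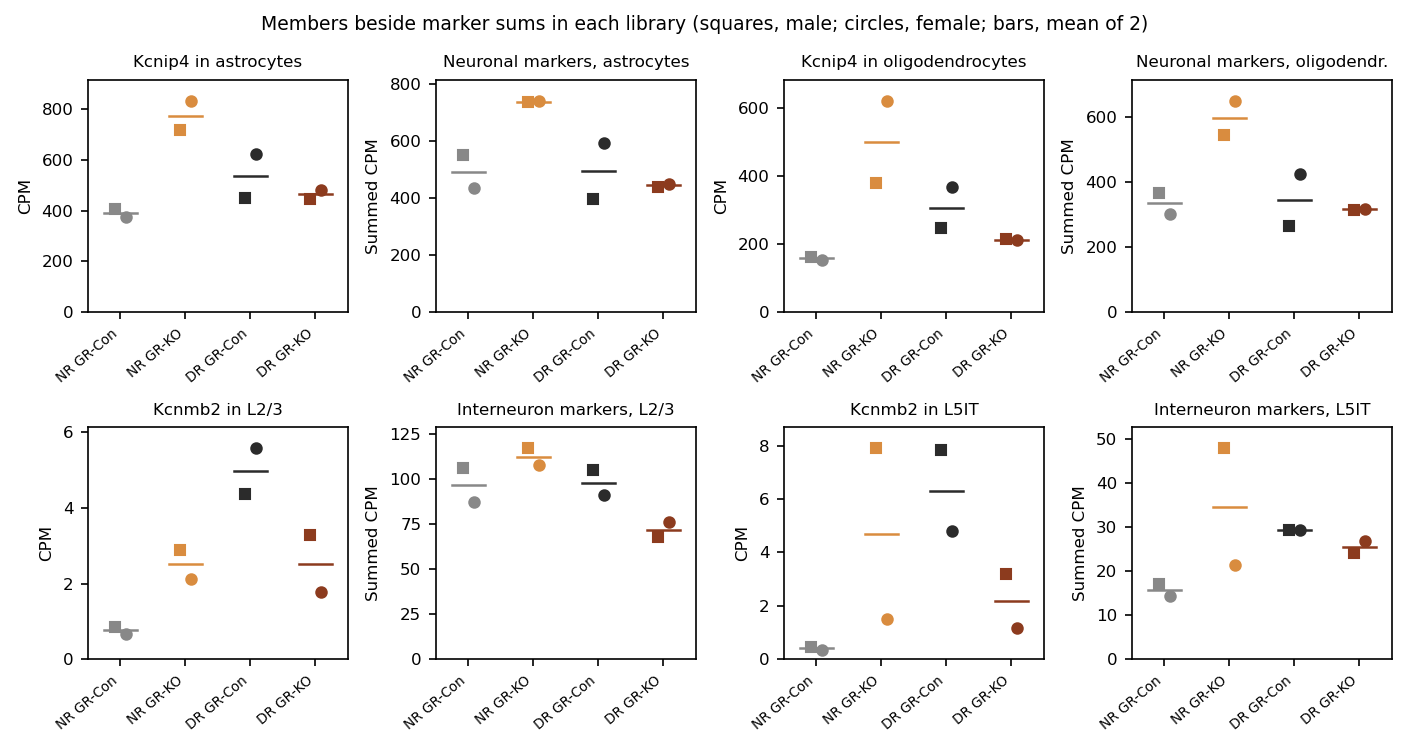
Level in CPM of Kcnip4 in astrocytes and oligodendrocytes and of Kcnmb2 in L2/3 and L5IT neurons, each beside the summed CPM of the marker list of another class (8 pan-neuronal or 14 interneuron markers), per library (squares, male; circles, female; bars, mean of 2; vertical axes start at 0). In both glial types the NR GR-KO libraries are highest for Kcnip4 and for the neuronal markers.

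Neurons held 11 of the 43 genotype calls within NR, of 772 pairs tested there (1.42%, beside 0.298% of all genes). Within DR, 12 of 917 pairs were called, 6 higher and 6 lower (1.31%, beside 0.513% of all genes), and 11 of these were in neurons, of 765 pairs (1.44%, beside 0.541%). By the quasi-likelihood test 0 were called, with 131 pairs at an unadjusted p under 0.05, against 113 by the likelihood ratio test. With sex as a term 32 were called, without a filter on low counts 6, without DR GR-Con male 69, without DR GR-Con female 44, without DR GR-KO male 7 and without DR GR-KO female 2. Kcnv1 was lower in L2/3, L5IT and L6CT, in L2/3 at 45.5 and 41.0 against 23.5 and 25.4 CPM (log2 fold change -0.77 ± 0.17, adjusted p = 0.00202 and 0.407 in edgeR's 2 tests). In NR the same gene was at 69.8 and 67.6 and 57.4 and 76.7 CPM. The leak channel gene Kcnk3 in L2/3 was at 9.58 and 10.2 against 15.1 and 14.0 CPM (0.61 ± 0.16, adjusted p = 0.0304 and 0.407). Each of these calls was lost without either DR GR-KO library, and that of Kcnk3 also without either DR GR-Con library, although the fold changes stayed between -0.85 and -0.67 for Kcnv1 in L2/3 and between 0.58 and 0.66 for Kcnk3. Such a fit has 1 library in a group, which is assumed to vary like the others.

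Within NR, neuronal calls included Kcnt2, the Slick channel gene, in Sst interneurons, at 75.4 and 84.6 CPM in NR GR-Con and 136 and 158 in NR GR-KO (log2 fold change 0.88 ± 0.17, adjusted p = 0.000957 and 0.624 in edgeR's 2 tests). Kcnmb4 in Pvalb interneurons was at 16.2 and 16.9 against 11.2 and 10.7 CPM (-0.60 ± 0.16, adjusted p = 0.0436 and 0.561). In L5PT neurons Kcnab3 was at 20.5 and 21.6 against 11.7 and 11.1 CPM (-0.87 ± 0.17, adjusted p = 0.000118 and 0.253), with 59 L5PT nuclei in NR GR-KO female. None of the 3 was called by the quasi-likelihood test or without either NR GR-Con library, nor was Kcnmb4 without either NR GR-KO library.

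In Pvalb interneurons of DR animals, Kcnc1 was at 327 and 319.9 CPM in GR-Con and 439.7 and 441 in GR-KO (log2 fold change 0.46 ± 0.12, adjusted p = 0.0259 and 0.126 in edgeR's 2 tests). The NR libraries were at 428 and 474 and 398 and 430.5 CPM, so the DR GR-Con pair was the lowest of the 4 groups, and within GR-Con the change with darkness was -0.48 ± 0.13, adjusted p = 0.015 and 0.0589, not called without DR GR-Con female or either NR GR-Con library. Kcnt2 was at 104 and 95.8 CPM in DR GR-Con, 68.0 and 54.0 in DR GR-KO (-0.70 ± 0.14, adjusted p = 0.00121 and 0.126), 75.0 and 71.0 in NR GR-Con and 94.7 and 71.5 in NR GR-KO. Leaving out DR GR-KO female removed the DR call of both genes, and leaving out DR GR-KO male or DR GR-Con female removed that of Kcnc1.

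The genotype difference was compared between rearings by an interaction term over all 8 libraries, the difference in NR minus that in DR. Of 955 pairs 14 were called, 13 positive and 1 negative (1.47%, beside 0.181% of all genes), and by the quasi-likelihood test 1, Kcnip4 in OPC (0.95 ± 0.21, adjusted p = 0.0141 and 0.046), with 138 at an unadjusted p under 0.05. In OPC that gene was at 441 and 494 CPM in NR GR-Con, 738 and 816 in NR GR-KO, 609.7 and 767 in DR GR-Con and 573 and 593 in DR GR-KO. The other glial pairs were Kcnip4, Kcnh7 and Kcnq5 in astrocytes and Kcnip4, Kcnh7 and Kcnc2 in oligodendrocytes, where the neuronal marker sums above apply. The neuronal pairs included Kcnmb2 in L2/3, L4 and L5IT, Kcnab1 and Kcnip4 in L5IT, and Kcnt2 in Pvalb. Kcnh7 in astrocytes, Kcnip4 in oligodendrocytes and Kcnmb2 in L2/3 and L4 were called whichever library was left out, the other 10 were not, while the count ran from 6 without either NR GR-Con library to 35 without DR GR-Con male and was 31 with sex as a term. Without the 3 libraries that lack small nuclei 48 were called, although the calls for Kcnip4 in OPC, Kcnmb2 in L2/3 and Kcnab1 in L5IT were among those lost. That fit covered 19 types, against 15 with all libraries. With only nuclei of at least 7024 UMIs, the interaction calls in astrocytes and OPC were lost by edgeR's likelihood ratio test, with 1.63 (adjusted p = 0.0529) for Kcnh7, 1.76 (adjusted p = 0.0665) for Kcnq5 and 0.61 (adjusted p = 0.85) for Kcnip4 in astrocytes, and 0.63 (adjusted p = 0.225) for Kcnip4 in OPC. This cut left 73 of 1099 and 117 of 1359 astrocytes in the DR GR-KO male and female libraries, and 43 OPC in each. In NR GR-KO it left 924 and 862 astrocytes, and the loss of nuclei was not separated from depth.

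Partners of these channels outside the naming rule were examined as a list of 18, of which 16 were tested. With dark rearing over both genotypes 13 of 210 pairs rose and 1 fell (6.19% and 0.476%, beside 2.62% and 2.63% of all genes). Within GR-Con 3 rose and 3 fell of 203 (1.48% each, beside 1.41% and 0.840%). Within GR-KO 4 rose and 15 fell of 237 (1.69% and 6.33%, beside 1.69% and 1.96%), and these pairs include vascular types not tested over both genotypes. All 15 falls were in astrocytes, oligodendrocytes, OPC and VLMC. In that comparison pan-neuronal markers were called lower in astrocytes (7 of 8), oligodendrocytes (6 of 8) and OPC (4 of 8). Their sum was also lower in VLMC, and their part in the 15 falls was not tested. Dpp6, which encodes a Kv4 auxiliary protein, rose in 6 types, with 0.52 ± 0.15, adjusted p = 0.0063 in L6CT neurons (edgeR likelihood ratio test). Cntnap2, whose product gathers Kv1 channels beside nodes of Ranvier, rose in L2/3, L6IT and L6CT, with 0.39 ± 0.10, adjusted p = 0.00249 in L6CT. Adam23 fell in L5IT (-0.45 ± 0.14, adjusted p = 0.03). For the genotype over both rearings 1 of 210 pairs was called (0.476%, beside 0.400% of all genes), Lgi1, which encodes a secreted protein tied to Kv1 channels, lower in astrocytes (-0.77 ± 0.16, adjusted p = 0.000134). Within NR 9 of 230 pairs rose and 1 fell (3.91% and 0.435%, beside 0.491% and 0.313% of all genes), all in astrocytes, oligodendrocytes and OPC, the types in which pan-neuronal markers rose within NR, and their part in these calls was not tested.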

How the data were processed

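Single-nucleus RNA-seq of V1 was deposited as raw UMI counts per gene and nucleus with a table of cell labels. Per the labels and methods, the authors made the deposited counts with Cell Ranger 8.0.1 on mm10 with an annotation that held eGFP, filtered nuclei in Seurat 5.3.0, removed doublets with DoubletFinder and named cell types from clusters. Library names give rearing, vector and sex and were matched to groups, not to single samples. Doublets were not called again.

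Here counts were summed per library and cell type in Python 3.11.15 (numpy 2.4.6, pandas 2.3.3), and types with at least 10 nuclei in each library of a comparison were fitted with edgeR 4.0.16 (R 4.3.3): glmLRT as in the study, after filterByExpr, TMM and estimateDisp, over all genes, with Benjamini-Hochberg adjustment within a type and a call under 0.05. Standard errors were the fold change over the square root of the likelihood ratio. Alternatives were edgeR's quasi-likelihood test, DESeq2 1.42.0, its size factors, no count filter, sex as a term, 100 nuclei per library, each library left out and, chosen after seeing the data, only nuclei of at least 7024 UMIs, and the 3 libraries that lack small nuclei left out. The fits of dark rearing were also run on simulated counts of L2/3, L6CT and Pvalb neurons and astrocytes. Changes with genotype, the interaction and types of few nuclei were not simulated, and the outcome is not reported here. Intervals were not computed, and counting error is part of the spread between libraries.

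The members and lists were chosen with earlier results of these data known. Genes were named where they were among up to 3 members highest in a type, up to 5 per direction, comparison and class called in the most types, on a list of conductances set with the design, or part of a count of 5 or fewer. Kcnj5, Kcna5, Kcna7 and Kcnj1 lie outside this rule and were chosen after their values were seen. Some members are counted but not reported here by name.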

Additional observations from a re-analysis of the deposited data

Results flagged for a closer look

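Tested by the interaction of genotype and rearing, 14 gene and type pairs had a genotype difference that differed between NR and DR (edgeR likelihood ratio test, adjusted p under 0.05). The values, given for 13 of them, are log2 differences in NR minus those in DR. In astrocytes they were 1.66 for Kcnh7, 1.09 for Kcnip4 and 1.61 for Kcnq5, and in oligodendrocytes 1.96 for Kcnc2, 1.72 for Kcnh7 and 2.13 for Kcnip4. The value for Kcnip4 in OPC was 0.95. With only nuclei of at least 7024 UMIs in every library, chosen after seeing the data, these calls in astrocytes and OPC were lost by the same test (edgeR), with 1.63 (adjusted p = 0.0529), 0.61 (adjusted p = 0.85) and 1.76 (adjusted p = 0.0665) in astrocytes and 0.63 (adjusted p = 0.225) in OPC. That cut left 73 of 1099 and 117 of 1359 astrocytes in the DR GR-KO male and female libraries, against 924 and 862 in NR GR-KO. The loss of nuclei was not separated from depth. In astrocytes, oligodendrocytes and OPC the pan-neuronal marker list had median interaction values of 0.75, 0.66 and 0.49, with 1 of the 8 markers called, in oligodendrocytes. In neurons, Kcnmb2 had 2.61 in L2/3, 2.48 in L4 and 5.01 in L5IT, Kcnab1 had 1.96 and Kcnip4 1.69 in L5IT, and Kcnt2 had 0.88 in Pvalb interneurons. The L5IT value of Kcnmb2 rests on a level near the floor, down to 0.358 CPM in NR GR-Con. The sum of 14 interneuron markers in L5IT was also lowest in NR GR-Con, at 16.9 and 14.3 CPM. Of these markers 9 were tested there. Their interaction value was above 0 in 9 of 9, with 0 called (edgeR likelihood ratio test). With dark rearing in GR-Con, 2 were called higher and 1 lower, and the median log2 fold change was 0.10. Their part in the Kcnmb2 values was not tested.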

How the results depend on the processing

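Counts of called pairs moved with the test, with sex as a term and with the libraries included. By edgeR's quasi-likelihood test the calls were 19 for dark rearing in GR-Con, 38 in GR-KO and 56 over both genotypes, 0 for genotype in DR, 21 in NR, and 1 for the interaction. With sex as a term there were 149 calls for dark rearing in GR-KO, 32 for genotype in DR, 69 in NR and 31 for the interaction. DESeq2 gave 25 for genotype in NR, and no filter on low counts gave 6 in DR. Without the 3 libraries that lack small nuclei the calls were 27 for genotype over both rearings and 48 for the interaction. With each library left out in turn the counts ran from 21 to 122 for dark rearing in GR-Con, 40 to 186 in GR-KO and 43 to 117 over both genotypes, from 2 to 69 for genotype in DR, 19 to 72 in NR and 7 to 24 over both rearings, and from 6 to 35 for the interaction. Leaving out the 3 libraries also raised the types tested from 15 to 19. The cause of these shifts was not tested. A fit without 1 of 4 libraries has 1 library in a group, assumed to vary like the others, and 94 of 94 called pairs examined kept their direction in each such fit, while 52 were called in all. Those pairs were picked because they were called in the same counts, so a kept direction was largely fixed in advance. By mean UMIs per nucleus in place of CPM, 55 of 92 genes kept their highest type, and 81 to 90 did with each library left out.

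The 90 dark rearing calls over both genotypes kept their direction in every alternative in which they were tested, and DESeq2 called 77 of them, the quasi-likelihood test 54 and the fit without the 3 libraries 45. The alternatives refit the counts from which the calls were picked, so the kept direction is not independent support. With 2 libraries a group, and types of few nuclei left out, weak changes could be missed. No paired analysis was possible by replicate number because the library names give the sex of the animal and no number, and the fit with sex as a term, which matches the male and the female of each group, is the nearest to it.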
